A study of Mus musculus with 6 samples.

Results

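Striated muscle sarcomere genes were examined in RNA from cultured mouse cartilage cells. The set holds 10 of the 35976 genes of the deposited count table, taken by symbol: the skeletal alpha-actin Acta1, the embryonic myosin heavy chain Myh3, the myosin light chains Myl1 and Mylpf, and the troponins Tnnc1, Tnnc2, Tnni1, Tnnt1, Tnnt2 and Tnnt3. They were chosen because measured values of the contrast described here had drawn attention to them. Their levels and fold changes are therefore a description, and no p-value is given for them. Both groups were chondrocytes, labelled as embryonic, from the articular cartilage of the hind limb at embryonic day 18.5, on a C57BL/6 x 129S4/SvJae background. Both were expanded on tissue culture plastic for 16 population doublings in medium with 2 µg/ml doxycycline, which switched on a histone H3.3 transgene. The H3K9M group (3 libraries, replicates 1, 3 and 5) expressed H3.3 with lysine 9 replaced by methionine, a form that lowers H3K9 methylation. The H3WT group (3 libraries, replicates 1, 2 and 4) expressed wild-type H3.3 by the same induction, so an untreated or transgene-free control was not part of the comparison. The labels do not say whether the libraries came from separate animals, and p-values then measure the spread between these libraries, which may be technical. They do not name the cells in which the transgene was active either.

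In striated muscle, thick filaments of myosin slide along thin filaments of actin within repeating units called sarcomeres. Calcium binds troponin C, troponin I then releases its block on actin, and troponin T ties the complex to tropomyosin. Most of these proteins exist as isoforms for slow skeletal, fast skeletal and cardiac fibres, and developing muscle uses embryonic forms. Chondrocytes make cartilage matrix instead, and their contractile proteins are mainly of the non-muscle and smooth muscle kinds.

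The libraries held 15113675 to 19606082 counts. Levels are given as CPM, the counts of a gene scaled to a common library size, after TMM scaling. They stand in the order of replicates 1, 3 and 5 for H3K9M and 1, 2 and 4 for H3WT, with means ± SD over 3 libraries. A gene at 3 or fewer counts in a library, 0.145 to 0.201 CPM, was taken as at the floor. Of the table's genes, 13761 had enough reads to be tested with edgeR, and 0 of them (0%) passed an adjusted p of 0.05, where the smallest adjusted p was 0.0987. At an unadjusted p under 0.05, 6.42% of tested genes were higher in H3K9M and 5.77% were lower. DESeq2 called 367 genes, and edgeR without H3WT replicate 2 called 91. The share of tested genes whose 3 H3K9M libraries all lay above the 3 H3WT libraries was 10.7%, and the reverse held for 8.68%.

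All 10 sarcomere genes had a higher mean in H3K9M, and the excess lay mainly in replicates 1 and 3. Summed over the genes, H3K9M replicates 1, 3 and 5 held 102.4, 123.2 and 25 CPM, and the H3WT replicates held 32.1, 14.5 and 29.8 CPM. H3K9M replicates 1 and 3 stood above every H3WT library in 10 of 10 genes, whereas replicate 5 did so in 5, namely Myh3, Myl1, Tnni1, Tnnt2 and Tnnt3. Those 5 genes are the ones whose groups did not overlap, beside the 10.7% of all tested genes; the choice of genes used this contrast, so nothing is read from that count. Acta1 made up most of the sums of H3WT replicates 1 and 4. Without Acta1 the sums were 69.7, 90 and 19 CPM in H3K9M and 5.90, 11.3 and 5.77 CPM in H3WT. In bulk RNA, fewer cells of a type and less RNA per cell cannot be told apart.

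**Figure D1:**
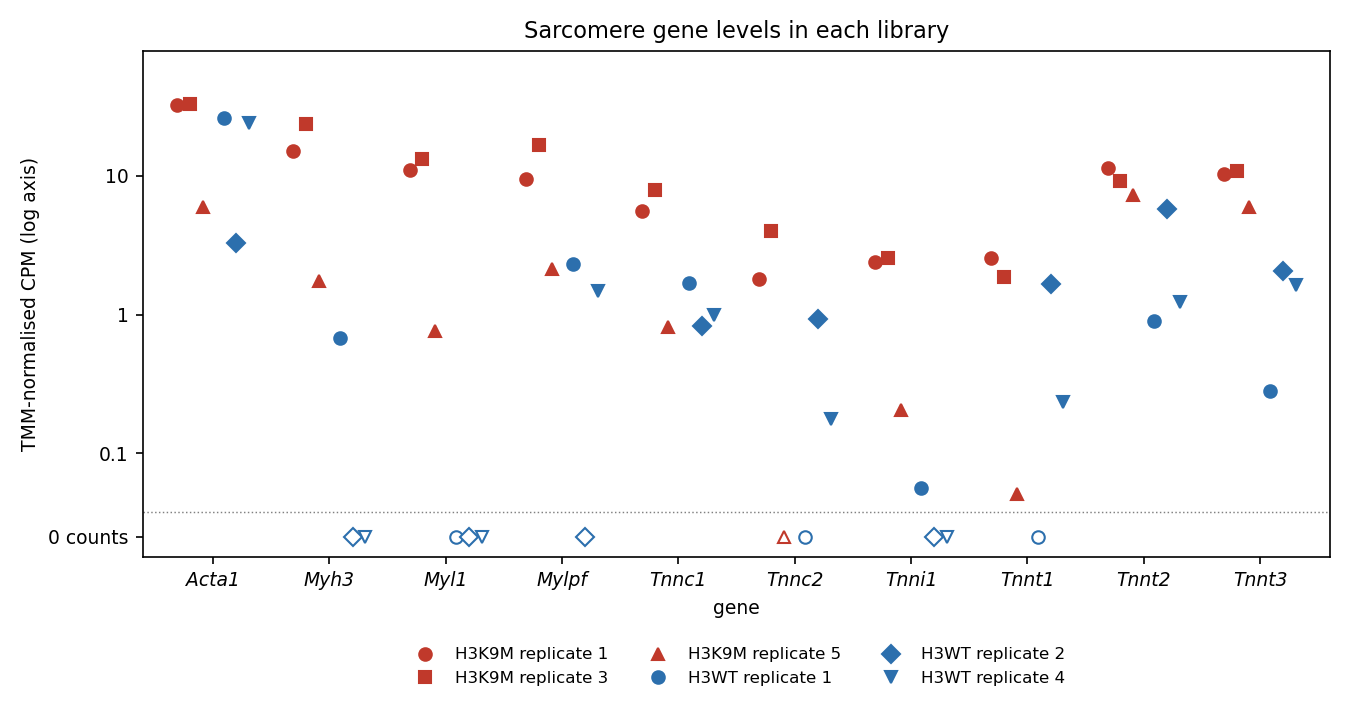
Level of each of the 10 sarcomere genes (x axis) in each library (y axis, TMM-normalised CPM on a log axis, with libraries at 0 counts drawn open below the dotted line). Red symbols are H3K9M and blue symbols H3WT; replicates 1 and 3 of H3K9M lie at the top of every gene, and replicate 5 (red triangle) falls among or below the blue symbols for Acta1, Mylpf, Tnnc1, Tnnc2 and Tnnt1.

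Acta1 (ENSMUSG00000031972, chr8:123891769-123894751, minus strand, GRCm38) encodes the actin of skeletal muscle thin filaments. It measured 32.8, 33.2 and 5.97 CPM in H3K9M and 26.2, 3.27 and 24.0 CPM in H3WT. H3K9M replicate 5 lay below H3WT replicates 1 and 4, so the groups overlapped, and the means of 24.0 ± 15.6 and 17.8 ± 12.7 CPM (SD, n = 3 each) differed by less than either SD. The fitted log2 fold change was 0.43 (SE 0.89), and it was -0.06 without H3WT replicate 2. Acta1 had the highest level of the set in H3WT replicates 1 and 4. It was low in replicate 2, as was the smooth muscle actin Acta2, which measured 3029, 703 and 3053 CPM in H3WT and 2515, 422 and 1384 CPM in H3K9M. A 239-base stretch of an Acta1 transcript is 92.47% identical to Actb, the abundant cytoplasmic actin, so reads from such stretches may be assigned to either gene.

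Myh3 (ENSMUSG00000020908, chr11:67078300-67102291, plus strand) encodes the myosin heavy chain of embryonic and regenerating muscle. Its counts were 225, 491 and 34 in H3K9M and 12, 0 and 0 in H3WT, or 15.1, 23.7 and 1.74 CPM against 0.674, 0 and 0 CPM. Every H3K9M library was above every H3WT library, and replicates 1 and 3 exceeded replicate 5 by 8.69-fold and 13.7-fold. The ratio of means was 60.2 (13.5 ± 11.1 and 0.225 ± 0.389 CPM) and the fitted log2 fold change 5.88 (SE 1.51). That fold rests on 12 reads in H3WT replicate 1.

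Myl1 (ENSMUSG00000061816, chr1:66924295-66945404, minus strand) encodes the essential light chains of fast skeletal myosin. It had 165, 274 and 15 counts in H3K9M, or 11.1, 13.2 and 0.765 CPM, and 0 counts in each H3WT library. Against a floor of 3 counts per H3WT library, the H3K9M mean of 8.35 ± 6.66 CPM was at least 50.0-fold higher. H3K9M replicate 5 was again the lowest of its group, 14.4-fold under replicate 1. A processed copy, Mylf-ps, shares 99.29% of 421 bases with Myl1 and could draw reads from it.

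Mylpf (ENSMUSG00000030672, chr7:127208890-127214298, plus strand) encodes the regulatory light chain of fast skeletal myosin. It measured 9.51, 16.6 and 2.14 CPM in H3K9M and 2.30, 0 and 1.47 CPM in H3WT. H3K9M replicate 5 lay just under H3WT replicate 1, so the groups overlapped through that library alone. The means were 9.43 ± 7.24 and 1.26 ± 1.17 CPM, a ratio of 7.49, and the fitted log2 fold change was 2.91 (SE 1.24). It became 2.22 without H3K9M replicate 3 and 3.69 without H3WT replicate 1.

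Both troponin C genes were highest in H3K9M replicate 3. Tnnc1 (ENSMUSG00000091898, chr14:31208312-31211729, plus strand), the form of slow skeletal and cardiac muscle, measured 5.56, 7.92 and 0.816 CPM in H3K9M and 1.68, 0.830 and 1.00 CPM in H3WT. H3K9M replicate 5 was the lowest of all 6 libraries. The means were 4.77 ± 3.62 and 1.17 ± 0.452 CPM, with a fitted log2 fold change of 2.02 (SE 0.81). Tnnc2 (ENSMUSG00000017300, chr2:164777161-164779967, minus strand), the fast skeletal form, had 27, 83 and 0 counts in H3K9M and 0, 18 and 3 in H3WT. Its groups overlapped, and its log2 fold change of 2.36 had an SE of 1.71. It became 1.26 without H3K9M replicate 3 and 4.38 without H3WT replicate 2. Tnnc2 is uncertain because 592 bases, 74% of its exon sequence, overlap exons of the cell-cycle gene Ube2c on the opposite strand, which had 870 to 2180 counts per library, and the strand setting of the counting is not given in the sources used here.

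Tnni1 (ENSMUSG00000026418, chr1:135779434-135810989, plus strand), the slow skeletal troponin I, did not pass the filter on low counts. It had 36, 53 and 4 counts in H3K9M and 1, 0 and 0 in H3WT. All H3K9M libraries were above all H3WT libraries, and 93 pooled counts against 1 gave a depth-scaled ratio of 91.0 (95% exact interval 15.9 to 3634, counting error only).

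The troponin T genes encode the subunit that anchors the complex to tropomyosin, and Tnnt2 and Tnnt3 were the members that stayed high in H3K9M replicate 5. Tnnt3 (ENSMUSG00000061723, chr7:142498836-142516009, plus strand), the fast skeletal form, measured 10.2, 10.8 and 5.97 CPM in H3K9M and 0.281, 2.08 and 1.65 CPM in H3WT. The groups did not overlap, and replicate 1 exceeded replicate 5 by only 1.72-fold. Means were 9.01 ± 2.65 and 1.34 ± 0.938 CPM, and the fitted log2 fold change was 2.75 (SE 0.66). Tnnt2 (ENSMUSG00000026414, chr1:135836354-135852260, plus strand), the cardiac and embryonic skeletal form, measured 11.5, 9.18 and 7.35 CPM in H3K9M and 0.898, 5.76 and 1.24 CPM in H3WT. The groups did not overlap, although H3WT replicate 2 lay less than the H3K9M SD under the lowest H3K9M library. Means were 9.33 ± 2.06 and 2.63 ± 2.71 CPM, and the fitted log2 fold change of 1.82 (SE 0.69) became 3.13 without H3WT replicate 2. Tnnt1 (ENSMUSG00000064179, chr7:4504570-4516382, minus strand), the slow skeletal form, had 38, 39 and 1 counts in H3K9M and 0, 32 and 4 in H3WT. Its groups overlapped through H3K9M replicate 5, and its log2 fold change of 1.22 (SE 1.56) became 3.61 without H3WT replicate 2.

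Counted against the fits across all genes, 5 of the 9 tested members had an unadjusted p under 0.05 and a higher level in H3K9M, beside 6.42% of all tested genes, and 0 passed adjustment. DESeq2 called 3 of the 10 members, beside 1.21% of the genes it tested called higher. Without H3WT replicate 2, edgeR called 1 member, beside 0.26% called higher. The members were chosen on this contrast, and nothing is read from these counts.

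Levels of different genes were compared per kilobase of exon. In H3K9M the order from high to low was Acta1 (15.6 CPM per kb), Mylpf (8.88), Tnnt3 (5.69), Tnnc1 (4.58), Myl1 (4.03), Tnnc2 (2.43), Myh3 (2.23), Tnnt2 (1.20), Tnnt1 (0.678) and Tnni1 (0.479). In 9 of the 9 neighbouring pairs of that order the means were closer than the larger of their SDs, so neighbours are not separated. Acta1 also led in H3WT, at 11.6 CPM per kb, followed by Mylpf at 1.19 CPM per kb. The lowest in H3WT were Myh3 at 0.0371 and Tnni1 at 0.00520 CPM per kb, with Myl1 at 0.

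Promoter sequence is shown for 4 members with different patterns over the libraries: Acta1, present in both groups, Myh3 and Mylpf, high in 2 H3K9M libraries, and Tnnt2, high in all 3. The 250 bases before the annotated start were taken from RefSeq on GRCm38.p6, at chr8:123894776-123895025 (minus strand), chr11:67078050-67078299 (plus), chr7:127211358-127211607 (plus) and chr1:135836084-135836333 (plus). Each is written 5′ to 3′ along its gene. Capitals mark CAGCTG, an E-box of the kind bound by MyoD and myogenin, the TATA box TATAAA, and the CArG box, the site of serum response factor.
Acta1: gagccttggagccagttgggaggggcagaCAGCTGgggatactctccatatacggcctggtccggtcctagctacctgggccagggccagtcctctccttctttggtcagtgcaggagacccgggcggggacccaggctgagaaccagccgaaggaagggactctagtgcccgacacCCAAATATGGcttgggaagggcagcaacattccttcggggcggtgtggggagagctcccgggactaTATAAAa
Myh3: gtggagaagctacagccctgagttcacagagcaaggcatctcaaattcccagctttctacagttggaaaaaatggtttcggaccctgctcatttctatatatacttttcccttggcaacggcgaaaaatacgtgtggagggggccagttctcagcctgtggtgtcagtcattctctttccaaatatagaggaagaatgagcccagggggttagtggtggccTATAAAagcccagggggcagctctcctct
Mylpf: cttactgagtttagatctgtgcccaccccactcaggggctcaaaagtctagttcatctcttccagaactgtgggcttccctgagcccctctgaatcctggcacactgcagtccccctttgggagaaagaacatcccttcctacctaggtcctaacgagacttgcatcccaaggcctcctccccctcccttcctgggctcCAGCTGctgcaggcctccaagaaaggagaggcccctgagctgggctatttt
Tnnt2: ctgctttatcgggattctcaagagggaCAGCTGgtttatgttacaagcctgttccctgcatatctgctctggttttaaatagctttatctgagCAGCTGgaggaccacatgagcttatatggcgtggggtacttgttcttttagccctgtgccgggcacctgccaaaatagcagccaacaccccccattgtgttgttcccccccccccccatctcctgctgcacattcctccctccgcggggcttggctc
Acta1 held 1 CAGCTG, the CArG box and the TATA box, Myh3 held the TATA box alone, Mylpf held 1 CAGCTG, and Tnnt2 held 2. TATAAA lay at -7 to -2 from the RefSeq start in Acta1 and at -29 to -24 in Myh3. The 2 annotations differ for Acta1: the RefSeq start is 123894775, and the GENCODE start, 123894751, lies downstream of it.

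RefSeq windows of 300 bases, from 250 before to 50 after a start, were found for 9 of the 10 genes, 11 windows in all. Tnnt3 had none. For Myl1, Tnnc2, Tnnt1, the first Tnni1 start and the second Tnnt2 start, an annotated exon of the same gene lay directly before the start. The second Tnni1 start had only 14 exon-free bases before it. Matches in these windows can therefore lie in transcribed sequence. On both strands, CAGCTG occurred in 6 of the 11 windows, beside 16.3% of all 32851 windows of that length. The 6 came from 5 genes (Acta1, Myl1, Mylpf, Tnni1 and Tnnt2), and the Tnni1 windows overlap and hold the same CAGCTG. The general E-box CANNTG, which includes CAGCTG, occurred in 11 of 11 windows and in 72.3% of all. TATAAA was found in 4 of the 11 windows (Acta1, Myh3, Myl1 and Tnnt1), beside 13.6% of all windows. The CArG box was found in 1 of the 11 (Acta1), beside 1.63% of all. The MEF2 site matched 0 of the 11 windows, beside 3.19% of all. These are matches of letters and say nothing about binding.

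**Figure D2:**
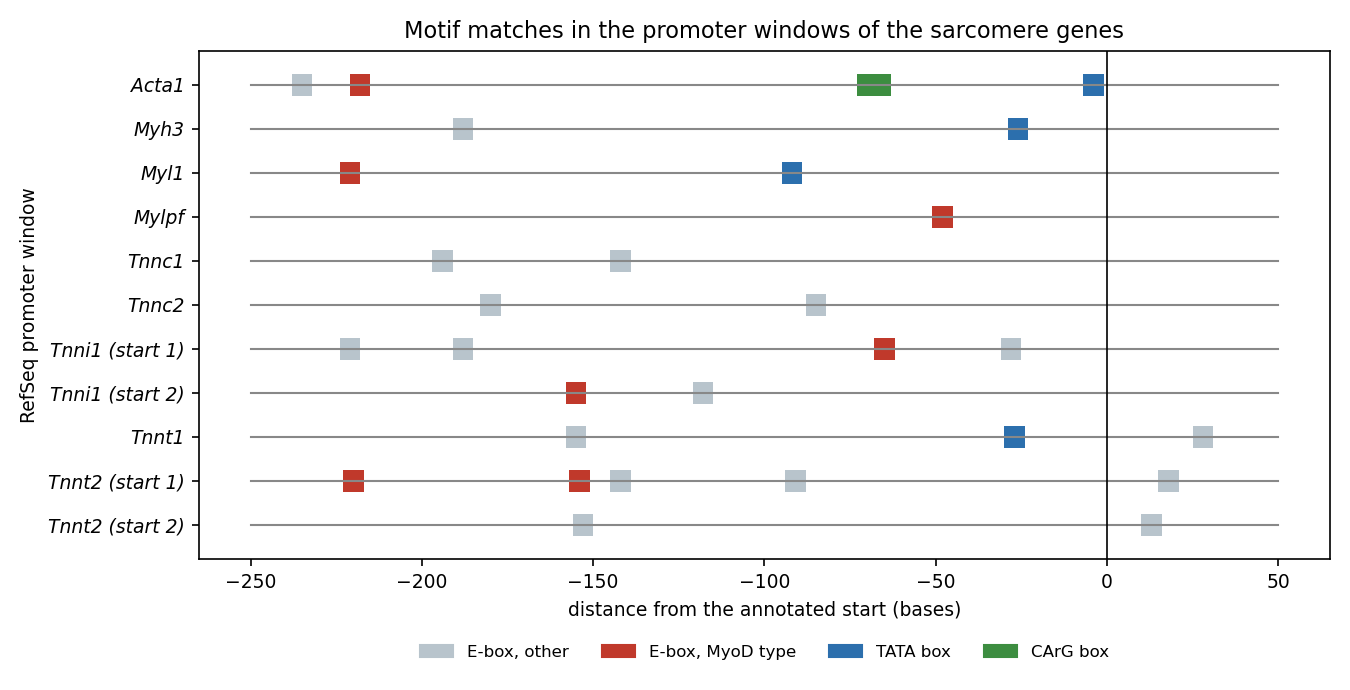
Motif matches in the 11 RefSeq promoter windows of 9 sarcomere genes (rows), by distance from the annotated start in bases (x axis, 250 before to 50 after). Red blocks are the MyoD type of E-box, grey blocks other E-boxes, blue blocks TATA boxes and the green block the CArG box. The red blocks occur in 6 windows and the green block in Acta1 only. The windows of Myl1, Tnnc2, Tnni1 and Tnnt1 and the second window of Tnnt2 include annotated exon sequence before the start.

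Across libraries the members moved together to different degrees. On log2 CPM over the 6 libraries, given as a description, the 6 closest pairs were Myl1 and Tnni1 (Pearson r 0.988), Myh3 and Tnni1 (0.966), Tnnc2 and Tnnt1 (0.957), Myh3 and Myl1 (0.95), Tnnc1 and Tnni1 (0.924), and Tnnt2 and Tnnt3 (0.911). The most distant pair was Acta1 and Tnnt2, at -0.183. Tnni1 followed the mean of the other members most closely (r 0.982) and Acta1 least (r 0.411). These points share their libraries and depth, and low counts widen each value. Leaving out H3K9M replicate 5, the ratio of means went from 60.2 to 86.4 for Myh3 and from 7.49 to 10.4 for Mylpf, but only from 3.54 to 3.92 for Tnnt2.

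The make-up of each troponin family also differed between libraries. Tnnt3 took the largest share of troponin T reads per kilobase in every library, at 71.1%, 77.0% and 79.5% in H3K9M and 60.5%, 46.7% and 79.6% in H3WT. That order depends on the exon lengths used, 7.75 kb for Tnnt2 and 1.58 kb for Tnnt3. By read count, Tnnt2 exceeded Tnnt3 in H3K9M replicates 1 (47.2% against 42.3%) and 5 (55% against 44.7%). It also did so in H3WT replicates 1 (76.2% against 23.8%, of 21 reads) and 2 (60.7% against 21.9%), but not in the remaining libraries. Tnnt1 supplied 10.5% (95% Wilson interval 7.74% to 14.1%) and 8.61% (6.36% to 11.6%) of troponin T counts in H3K9M replicates 1 and 3 but 0.382% (0.0674% to 2.13%) in replicate 5. The H3WT library with the most Tnnt1 was replicate 2, at 17.5% (12.7% to 23.6%). Among troponin I counts, slow Tnni1 gave 36.4% and 37.3% in H3K9M replicates 1 and 3 and 8% in replicate 5, while fast Tnni2 gave 90% there. H3WT replicates 1 and 4 held only 21 and 15 troponin I reads, so their shares are wide. The fast and slow troponin genes lie in pairs: Tnni1 and Tnnt2 are 25364 bases apart on chr1, Tnni2 and Tnnt3 54425 bases apart on chr7, and Tnnt1 and the cardiac Tnni3 1922 bases apart on chr7. Tnnt3 and its neighbour Tnni2 both kept a high level in H3K9M replicate 5; Tnnt2 did as well, and its neighbour Tnni1 had 4 counts there.

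**Figure D3:**
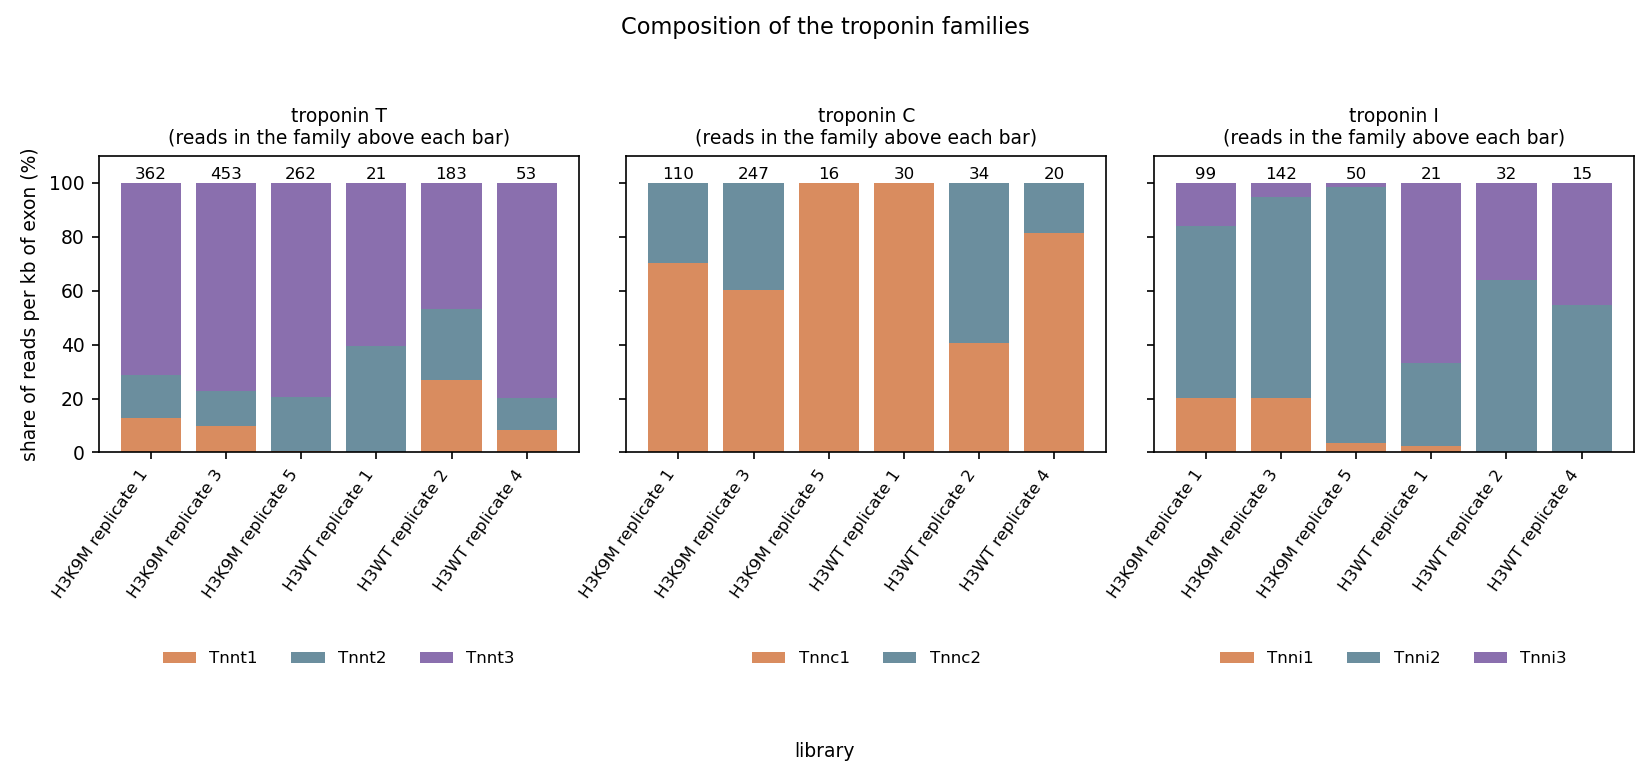
Share of each gene in the troponin T, C and I reads of each library, per kilobase of exon (y axis, percent; stacked bars), with the family's read count above the bar. Tnnt3 forms the largest block of troponin T in each library, and Tnni1 is visible in troponin I mainly in H3K9M replicates 1 and 3.

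Other sarcomere genes were then counted, to see whether the pattern over libraries extended beyond the chosen members. Of 52 further genes of thick, thin and elastic filaments, Z discs and M bands, 49 had a count and 21 were tested. At an adjusted p of 0.05 edgeR called 0 in either direction. DESeq2 called 5 of the 34 it tested, Des, Mybph, Ttn, Tnni2 and Myom2, beside 1.21% of all its tested genes called higher. Mybph and Ttn were not among the 21 tested with edgeR. With edgeR at an unadjusted p under 0.05, 5 were higher (Tnni2, Myom2, Cryab, Des and Xirp2) and 1 was lower (Obsl1), beside 6.42% and 5.77% of all tested genes. The median log2 fold change of the 21 was 0.35, against -0.003 for all tested genes. The highest library was H3K9M replicate 1 or 3 for 37 of the 49 genes (75.5%), and for 35.5% of all tested genes. The same held for 14 of the 21 that were tested.

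Des encodes desmin, the intermediate filament around muscle Z discs. It measured 81.0, 98 and 8.77 CPM in H3K9M and 4.88, 6.80 and 1.71 CPM in H3WT. The groups did not overlap, and replicates 1 and 3 again stood far above replicate 5. Its log2 fold change was 3.80 (SE 0.98, edgeR adjusted p = 0.255, DESeq2 adjusted p = 0.0150). Tnni2, the fast skeletal troponin I, measured 3.15, 3.91 and 2.30 CPM in H3K9M and 0.281, 0.934 and 0.412 CPM in H3WT, 2.50 higher on the log2 scale (SE 0.72, edgeR adjusted p = 0.255, DESeq2 adjusted p = 0.0368). As with Tnnt2 and Tnnt3, all 3 H3K9M libraries were high. Cryab, a small heat shock protein abundant in muscle and also made by other cells, was named after its values were seen and measured 116, 130.5 and 129.8 CPM in H3K9M and 96.1, 93.5 and 106 CPM in H3WT (0.35 on the log2 scale, SE 0.12, edgeR adjusted p = 0.302). Myom2, an M-band protein named after its values were seen, had 45, 53 and 19 counts in H3K9M and 0 in each H3WT library, at least 13.1-fold higher (edgeR adjusted p = 0.194). Ttn, the giant elastic filament titin, had 29, 90 and 5 counts in H3K9M and 0, 0 and 1 in H3WT. Mybph, also named after its values were seen, had 88, 107 and 2 counts in H3K9M and 0 in H3WT, and while 49.9% of its exon bases overlap Adora1 on the other strand, Adora1 had 10 counts in H3K9M replicate 5 and 0 in the other libraries.

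Myosin heavy chains of mature fibres were scarce, whereas the fast skeletal Mylpf, Myl1, Tnnt3 and Tnni2 averaged 9.43, 8.35, 9.01 and 3.12 CPM in H3K9M. The adult fast myosin Myh1 had 17, 81 and 6 counts in H3K9M and 5, 0 and 0 in H3WT, and Myh4 had 13 counts in H3K9M replicate 3 alone. Myh2 went the other way, with 5, 6 and 0 counts in H3K9M and 28, 0 and 18 in H3WT. Slow Myh7 had 1 count in all, in H3WT replicate 1, and perinatal Myh8 had 0. The cardiac actin Actc1, which embryonic skeletal muscle also uses, had 12, 26 and 0 counts in H3K9M and 0 in H3WT, and the Z-disc actinin Actn2 had 29, 18 and 0 against 0. Ventricular Myl2 had 8 counts, in H3K9M replicate 3, and Myl3 had 5, in H3WT replicate 1. The embryonic and atrial light chain Myl4 had 164, 296 and 61 counts in H3K9M and 60, 111 and 63 in H3WT, a difference of 1.14 on the log2 scale (SE 0.54, edgeR adjusted p = 0.444). Neb, the thin filament ruler nebulin, had 44, 50 and 24 counts in H3K9M and 21, 0 and 33 in H3WT (adjusted p = 0.769). Tnni3, the cardiac troponin I, had 16, 8 and 1 counts in H3K9M and 15, 14 and 8 in H3WT (-0.45 on the log2 scale, edgeR adjusted p = 0.911).

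The 31 untested sarcomere genes summed to 303, 641 and 42 counts in H3K9M and 70, 5 and 47 in H3WT. Of the 28 with a count, 23 were highest in H3K9M replicate 1 or 3, where 37.2% of all untested genes with a count were. The filter on low counts keeps genes by their level in some libraries, so it does not bear evenly on genes that are high in 1 or 2 libraries. Tropomyosins, which non-muscle cells also make, were abundant in both groups: Tpm1 averaged 1459 ± 384 CPM in H3K9M and 1519 ± 377 CPM in H3WT, and the log2 fold changes of Tpm1, Tpm2 and Tpm3 were -0.06, -0.18 and -0.05 (SE 0.25, 0.23 and 0.13).

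**Figure D4:**
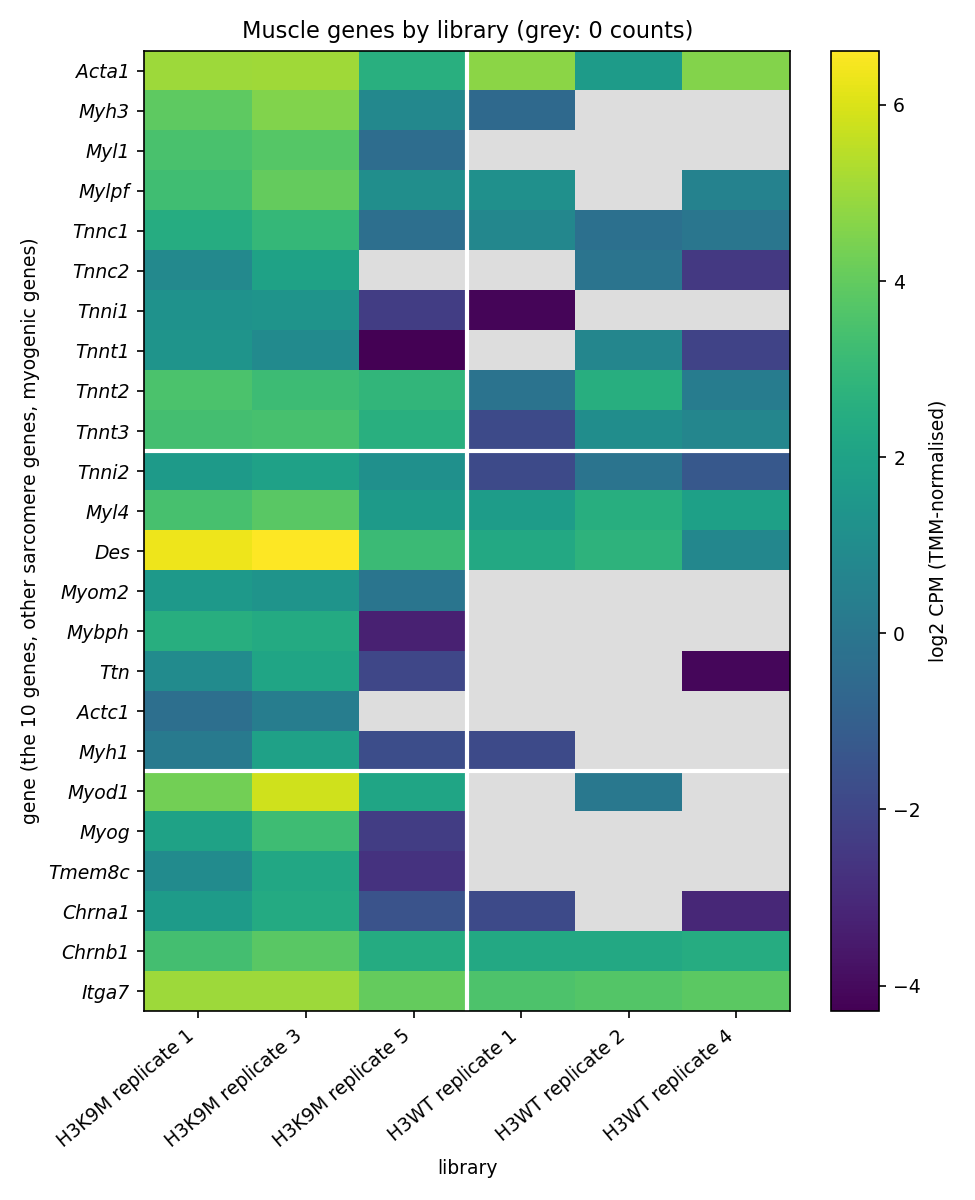
Log2 CPM (colour) of the 10 sarcomere genes, 8 other sarcomere genes and 6 myogenic genes (rows) in each library (columns), with 0 counts in grey and Tmem8c standing for Mymk. The H3K9M replicate 1 and 3 columns are the brightest for nearly every row, and the colour changes least from them to replicate 5 for Tnnt2, Tnnt3 and Tnni2.

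Several myogenic regulators were also highest in H3K9M replicates 1 and 3. Myod1, the transcription factor that commits cells to the muscle lineage, had 291, 1179 and 84 counts in H3K9M and 0, 20 and 0 in H3WT, or 19.5, 57.0 and 4.29 CPM against 0, 1.04 and 0 CPM. Its log2 fold change was 6.20 (SE 1.53, edgeR adjusted p = 0.244), and all 3 H3K9M libraries were above all H3WT libraries. That fold rests on 20 reads in H3WT replicate 2: the fitted value was 11.93 without that library, where H3WT is at 0 counts, and 5.04 without H3K9M replicate 3. Myog, which drives terminal differentiation, had 60, 195 and 4 counts in H3K9M and 0 in H3WT, at least 27.3-fold higher. Mymk, listed under its older symbol Tmem8c, encodes a protein needed for myoblast fusion and had 29, 98 and 3 counts against 0, at least 13.6-fold higher. Pax7 and Myf5, markers of muscle stem cells and early myoblasts, had 0 counts in all 6 libraries, as did Myf6.

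Of 25 regulator, fusion and neuromuscular synapse genes, 21 had a count and 9 were tested. After adjustment edgeR called 0, while at an unadjusted p under 0.05 it had 3 higher (Myod1, Itga7 and Chrnb1) and 0 lower, beside 6.42% and 5.77% of all tested genes. DESeq2 called 5 of the 16 it tested, Myog, Itga7, Tmem8c, Chrna1 and Cdh15, beside 1.21% of all its tested genes called higher. Of these 5, only Itga7 was among the 9 tested with edgeR. The median log2 fold change of the tested 9 was -0.01, against -0.003 for all tested genes, and 17 of the 21 with a count (81.0%) were highest in H3K9M replicate 1 or 3, where 35.5% of all tested genes and 37.2% of untested genes with a count were. Summed over the list, H3K9M libraries held 328 to 499 CPM and H3WT libraries 327 to 366 CPM, most of it from the broadly expressed Mef2 genes. Mef2c measured 10.8 ± 0.885 CPM in H3K9M and 15.2 ± 3.24 CPM in H3WT, -0.50 on the log2 scale (SE 0.24, edgeR adjusted p = 0.444), and Mef2d had a log2 fold change of -0.02 (SE 0.11). The part of these regulators, or of any muscle cells in the cultures, in the sarcomere values was not tested.

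Genes of calcium handling and muscle metabolism were mixed. Of 28, 26 had a count and edgeR tested 11, with 0 called after adjustment. DESeq2 called 2 of the 17 it tested, Eno3 and Casq2, beside 1.21% of all its tested genes called higher. Casq2 was not among the 11 tested with edgeR. Eno3, the muscle enolase of glycolysis, measured 20.1, 24.3 and 29.0 CPM in H3K9M and 6.63, 11 and 6.78 CPM in H3WT. It had a fitted difference of 1.59 on the log2 scale (SE 0.27, edgeR adjusted p = 0.170). It was highest in H3K9M replicate 5, unlike the sarcomere genes. The edgeR adjusted p of Eno3 was 0.0218 over every gene with a count and 0.0291 without H3WT replicate 2. Casq2, a calcium store protein of the sarcoplasmic reticulum, had 57, 127 and 5 counts in H3K9M and 0 in H3WT, at least 20.4-fold higher. The fast-fibre calcium pump Atp2a1 had 11, 22 and 3 counts against 0, at least 3.90-fold higher, and the release channel Ryr1 had 10, 53 and 6 against 22, 0 and 0 (adjusted p = 0.760). Ckm, the muscle creatine kinase, had 13 counts, in H3K9M replicate 1. Of the 26 list genes with a count, 16 (61.5%) were highest in H3K9M replicate 1 or 3. The share was 35.5% for all tested genes and 37.2% for untested genes with a count. Of the 11 list genes tested with edgeR, 4 were highest in those libraries. At an unadjusted p under 0.05, edgeR had 1 list gene higher (Eno3) and 1 lower (the broadly expressed pump Atp2a2). The shares of all tested genes were 6.42% and 5.77%. The tested genes of the list had a median of 0.03 on the log2 scale, against -0.003 for all tested genes.

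**Figure D5:**
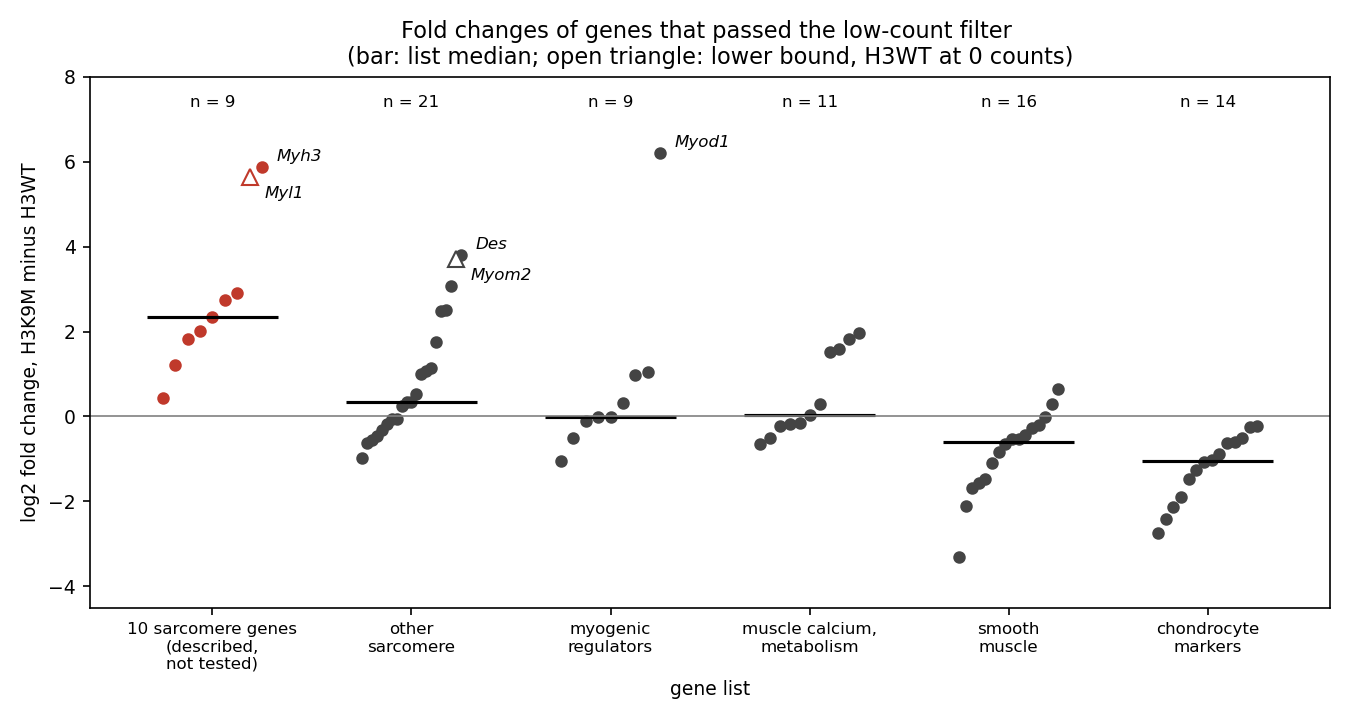
Fitted log2 fold change, H3K9M minus H3WT (y axis), of each gene that passed the filter on low counts, by gene list (x axis); bars are list medians and open triangles lower bounds for genes at 0 counts in H3WT. The 10 sarcomere genes (9 of them plotted) were chosen on this contrast, and the other lists centre between -1.06 (chondrocyte markers) and 0.35 (other sarcomere genes).

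Smooth muscle genes did not share the pattern. All 16 were tested, 0 passed adjustment with edgeR and 2, Pcp4l1 and Itga8, were lower with DESeq2, beside 1.21% of its tested genes called lower. Their median log2 fold change was -0.60. Their summed level was 7953, 2790 and 4972 CPM in H3K9M and 8546, 3548 and 9225 CPM in H3WT, so that H3K9M replicate 3, the library highest in 8 of the 10 sarcomere genes, was the lowest of the 6. The log2 fold change of Acta2 stood at -0.65 (SE 0.77, edgeR adjusted p = 0.792; -1.32 without H3K9M replicate 1) and Cald1, the actin-binding caldesmon, -0.19 (SE 0.26, adjusted p = 0.816).

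The labelled cell type was checked against chondrocyte markers, and all 14 had counts. Col2a1, the main collagen of cartilage, ranged from 4913 to 14110 CPM over the libraries, and Sox9, the chondrocyte lineage factor, from 114 to 285 CPM. The 14 markers summed to 7368, 7922 and 11598 CPM in H3K9M and 7290, 19680 and 13847 CPM in H3WT. H3K9M replicates 1 and 3 were thus near the low end together with H3WT replicate 1. None of the 14 passed adjustment with edgeR, 2 (Col9a1 and Col9a2) were lower at an unadjusted p under 0.05, and DESeq2 called 0. Their median log2 fold change was -1.06, with Col2a1 at -0.61 (SE 0.39, adjusted p = 0.558) and Col11a1 at -0.51 (SE 0.29, adjusted p = 0.505). H3WT replicate 2 was the highest library for 13 of the 14 markers, and it was also the H3WT library highest in Tnnc2, Tnnt1, Tnnt2 and Tnnt3.

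Markers of other tissues that could accompany cartilage were summed in the same way. In those of 2 tissues, H3K9M replicates 1 and 3 lay above every H3WT library, as they did for the sarcomere genes. Blood and macrophage markers summed to 14.3, 22.9 and 11.4 CPM in H3K9M and 9.71, 13.5 and 5.83 CPM in H3WT, so that replicates 1 and 3 lay above every H3WT library and replicate 5 among them. Most of that came from Cd68 and Cd14, and of the 10 markers Ptprc, Adgre1, Itgam, Hbb-bt and Tyrobp were at 0 counts throughout. Cd68, a lysosomal protein of macrophages, measured 2.61, 12.8 and 4.75 CPM in H3K9M and 0.618, 3.37 and 2.00 CPM in H3WT (edgeR adjusted p = 0.411). Heart markers summed to 2.48, 1.59 and 0.918 CPM in H3K9M and 0.842, 0.726 and 0.530 CPM in H3WT. Of these markers, Myh6, Myl2, Myl7, Tnni3 and Mybpc3 were also in the list of other sarcomere genes. In the heart marker sums, replicate 5 also lay above every H3WT library. The sarcomere sums without Acta1 did the same, at 19 CPM against 5.90, 11.3 and 5.77 CPM. With Acta1 included, replicate 5 lay among the H3WT libraries. Nkx2-5, Gata4 and Myh6 were at 0 counts, and 5 of the 7 heart markers with a count were highest in H3K9M replicate 1 or 3, beside 35.5% of all tested genes and 37.2% of untested genes with a count.

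Endothelial markers summed to 6.28 to 14 CPM in H3K9M and 11.9 to 24.8 CPM in H3WT, mainly from Erg, with Cdh5, Tie1 and Emcn at 0. Tendon markers, led by Fmod and Tnc, summed to 998 to 1658 CPM in H3K9M and 1369 to 2566 CPM in H3WT. The tendon lineage factor Scx, named after its values were seen, went against that sum, at 89.5, 75.1 and 90.7 CPM in H3K9M and 50.6, 51.8 and 33.6 CPM in H3WT (0.91 on the log2 scale, SE 0.19, edgeR adjusted p = 0.190). Nerve markers, led by S100b and Mbp, summed to 43.7 to 67.0 CPM and 23.8 to 64.5 CPM with Sox10 at 0. Mbp, a myelin protein, measured 19.6, 16.2 and 15.9 CPM in H3K9M and 6.40, 2.18 and 5.42 CPM in H3WT (1.88 on the log2 scale, SE 0.39, edgeR adjusted p = 0.194). Scx and Mbp did not overlap between the groups, and H3K9M replicate 5 was as high as replicates 1 and 3 for Scx and close to replicate 3 for Mbp, unlike most sarcomere genes. The part of these cell types in the sarcomere values was not tested.

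The genes most like the sarcomere set were ranked by Pearson r of log2 CPM with the members' mean profile over the 6 libraries, among 13752 other tested genes. The top 10 were Ogfrl1, Itga7, Prmt2, Rdh5, Zfp53, Unc50, Adsl, Mir686, Romo1 and Ifngr2, with r from 0.979 to 0.9998 and Spearman's rho from 0.771 to 1. Of these, Itga7, the laminin receptor subunit of muscle cells, measured 32.0, 32.8 and 16.6 CPM in H3K9M and 12.0, 12.8 and 14.6 CPM in H3WT (1.05 on the log2 scale, SE 0.28, edgeR adjusted p = 0.239, DESeq2 adjusted p = 0.0457). Chrnb1, a subunit of the muscle acetylcholine receptor, ranked 15 (r 0.978), Des 47 (0.952) and Myod1 196 (0.896). With 6 points and this many genes, high values of r are frequent, and no gene's rank was tested.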

How the data were processed

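Polyadenylated RNA libraries of 3 H3K9M and 3 H3WT chondrocyte cultures were measured, and groups were taken from the sample titles. The authors deposited raw read counts per gene symbol, not normalized; per the submitters' processing notes the tools included HISAT2, featureCounts and DESeq2 and the build was mm10. Versions, annotation, strand setting and the handling of multiply mapped reads are not given in the sources used here. All columns were mapped to samples (0 were not). Libraries within a group differed beyond sampling noise (chi-square per degree of freedom 26.5 to 114), so each was kept as 1 replicate.

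The count analysis used edgeR 4.0.16 (R 4.3.3): filterByExpr (minimum count 10), TMM scaling and the robust quasi-likelihood test with genotype as the only term, adjusted by Benjamini-Hochberg over 13761 genes. Standard errors were derived from the fitted fold change and its F statistic (absolute value over root F). With 3 libraries against 3, no permutation test was run on single genes. A prior count of 2 was used for the log2 CPM behind correlations. Intervals and floors cover counting error only. Alternatives were DESeq2 1.42.0, its size factors, library size alone, every gene with a count, at least 10 counts in every library, and each library left out. The code was tested on simulated data. Exon lengths, overlaps and coordinates came from GENCODE release M21 (GRCm38), promoters from RefSeq (GRCm38.p6), and similar transcripts from blastn 2.17.0 (at least 90% identity over 200 bases).

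The members, gene lists and rules were chosen with earlier results of these data known. The text names all members, set genes of each muscle list, the 2 most abundant tested genes of each marker list, genes past the threshold and the 10 most like the members; others are named as examples after their values were seen. A planned comparison of protein identity between paralogs was not made.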

Additional observations from a re-analysis of the deposited data

How the results depend on the processing

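No paired analysis was possible because the groups share only replicate number 1. The number of genes called was 0 with edgeR, 367 with DESeq2, 36 with every gene with a count, and 0 to 91 on leaving out each library (2 without H3K9M replicate 3, 91 without H3WT replicate 2). DESeq2 called 5 other sarcomere genes, 5 myogenic genes, 2 calcium and metabolism genes and 2 smooth muscle genes, where edgeR called 0. In the sarcomere, myogenic and calcium lists DESeq2 tested 34, 16 and 17 genes, against 21, 9 and 11 with edgeR. Eno3 alone passed in the calcium and metabolism list over every gene with a count (1 gene) and on leaving out a library (0 to 1), and Pcp4l1 alone in the smooth muscle list (0 to 1), each without H3WT replicate 2. Chondrocyte markers gave 0 in each alternative. On leaving out each library, 2 log2 fold changes changed sign: Acta1 ranged from -0.058 (without H3WT replicate 2) to 0.90 (without H3K9M replicate 5), and Cald1 from -0.39 (without H3K9M replicate 1) to 0.015 (without H3WT replicate 4). The largest move among members was Myh3, 10.95 without H3WT replicate 1, where its H3WT counts are then all 0. The median of the 9 tested members, 2.36, ranged from 1.81 (at least 10 counts in every library, 3 members) to 3.42 (without H3WT replicate 2, 10 members). These medians cover different genes. The 3 members kept by the stricter filter, Acta1, Tnnc1 and Tnnt2, had nearly unchanged values there (0.43, 2.02 and 1.81). The causes were not tested. Depth limits Tnni1, Tnnc2 and Tnnt1, which have 0 to 4 counts in several libraries.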
